A study of Mus musculus with 94 samples.

Results

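The genes described here are 34 genes of oligodendrocytes and myelin, listed by name, with no threshold on their values but with earlier results of these data known, of 18194 genes that had a probe set naming 1 gene on the array. Each was read from the single-gene probe set with the highest mean over all arrays, which was found for 32 of them. Enpp2, which makes lysophosphatidic acid, and Trf, the iron carrier transferrin, had no such probe set and were not analysed here.

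Whole half-brains of adult male C57BL6 mice were measured on 94 Affymetrix Mouse Genome 430 2.0 arrays, 1 animal per array. The mice were wt or Mgmt-/- on the same background, the latter without, in any tissue, the enzyme MGMT, which repairs O6-methylguanine by taking over its methyl group. At 11 weeks of age they had received a single intraperitoneal injection of MAM (methylazoxymethanol acetate, 20 mg/kg), a DNA-methylating agent derived from cycads, or its vehicle, and were killed 6, 24, 48 or 168 hr later. The comparison addressed how the brain responds to MAM where O6-methylguanine is or is not repaired. Of the 16 groups of genotype, agent and time, those of vehicle-treated wt mice at 48 hr and of MAM-treated wt mice at 168 hr held 5 animals and all others 6.

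Oligodendrocytes wrap axons of the central nervous system in myelin, a stack of membrane rich in galactolipids and cholesterol and held together by a small set of abundant proteins. They arise from precursors that carry Pdgfra and the proteoglycan Cspg4, pass through a short stage marked by Gpr17, Enpp6 and Bcas1, and mature under the transcription factors Olig1, Olig2, Sox10, Nkx6-2 and Myrf. Adult brain keeps both the precursors and a large stock of mature cells. In RNA of a half-brain, fewer cells of a type and less RNA per cell cannot be told apart.

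Several arrays and a technical measure bear on the values. The array of animal A343 (Mgmt-/- MAM 168 hr) carried liver RNA (its median over 11 liver genes was 13.57 log2 units, and no other array passed 6.70) and was left out, so that 93 arrays were compared and this group held 5. Arrays A707 (wt vehicle 24 hr) and A727 (wt MAM 6 hr) were closer to each other than any other pair (root mean square difference 0.0905 over all probe sets, next pair 0.152) although their labels differ. Without both, the 31 values of single genes compared at 6 and 24 hr all kept their direction and their side of the threshold for a call. The animal numbers fall into number sets 1 and 2 in each genotype, taken as the treating laboratories, and probe sets whose effects differed between the sets were set aside before testing (the laboratory filter). Of the 32 genes, 7 were left by this filter at 6 hr, 11 at 24 hr, 28 at 48 hr and 23 at 168 hr, next to 39.3, 47.9, 78.8 and 71.0% of all probe sets. The signal of Gapdh and beta-actin at the 3' end less that at the 5' end (RNA 3'/5' index), which follows RNA quality, had group means of 0.313 to 0.442 in wt and 0.423 to 0.633 log2 units in Mgmt-/- brain. MAM minus vehicle of this index was 0.20, 0.15, 0.12 and -0.03 in Mgmt-/- brain at 6, 24, 48 and 168 hr. In wt brain it was 0.06, 0.06, 0.00 and 0.07.

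Mean signals ran from 5.20 log2 units for Sox8, a transcription factor related to Sox10, to 13.53 for Mbp, the major basic protein of compact myelin (above 47.7 and 99.98% of all probe sets). Such signals do not rank transcripts between genes. Of the 32 genes 8 had a mean above 11 log2 units. The myelin genes that define oligodendrocytes were all present, with means of 12.91 for Cnp, 12.08 for Mobp, 9.74 for Mag and 8.49 for Mog.

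Among the comparisons of MAM vs. vehicle, genes were called in Mgmt-/- brain at 168 hr, where 3 of the 23 tested genes fell relative to vehicle, and at no other time or in wt brain. They were Ugt8a, the enzyme that makes galactosylceramide, the main glycolipid of myelin (chr3:125865272-125938682), Opalin, a membrane glycoprotein of mature oligodendrocytes (chr19:41061959-41077113), and Pllp, plasmolipin, a tetraspan protein of myelin (chr8:94674895-94696242, all GRCm38.p6). Signals were lower by 42.1% for Ugt8a, 33.7% for Opalin and 27.5% for Pllp. Over all 32025 tested probe sets, 0.462% were called in this comparison and 0.244% in the lower direction, where called means an adjusted p under 0.05 together with a fold above 1.3.

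Ugt8a had 9.10, 9.01, 9.33, 9.60 and 8.80 log2 units in the 5 MAM-treated Mgmt-/- animals at 168 hr. The 6 vehicle animals had a lowest value of 9.69, a median of 9.94 and a highest value of 10.16. Every MAM-treated animal thus lay below every vehicle animal. The 2 groups did not overlap, in either direction, for 1.07% of all tested probe sets. The fitted difference was -0.79 (SE 0.10, adjusted p = 9.9e-05), with -0.72 in number set 1 and -0.85 in number set 2. Its dimmer second probe set differed by -0.82 but was set aside by the laboratory filter.

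Opalin had 8.08, 7.78, 8.29, 8.70 and 8.26 log2 units after MAM, against 8.40, 8.75 and 9.13 as lowest, median and highest with vehicle. Only A969, at 8.70, reached into the vehicle range, and within each number set all treated animals were below all vehicle animals. The difference was -0.59 (SE 0.09, adjusted p = 0.0026), with -0.58 and -0.61 in the 2 sets. A second Opalin probe set with a mean of only 3.72 log2 units differed by 0.05.

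Pllp had 8.88, 8.63, 8.83, 9.16 and 8.90 log2 units after MAM. With vehicle its lowest, median and highest values were 9.06, 9.36 and 9.53, and A969, at 9.16, again was the only treated animal within their range. The difference was -0.46 (SE 0.08, adjusted p = 0.0064), with -0.51 and -0.43 in the 2 sets. Without A969, 5 of the genes were called in place of 3.

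**Figure D1:**
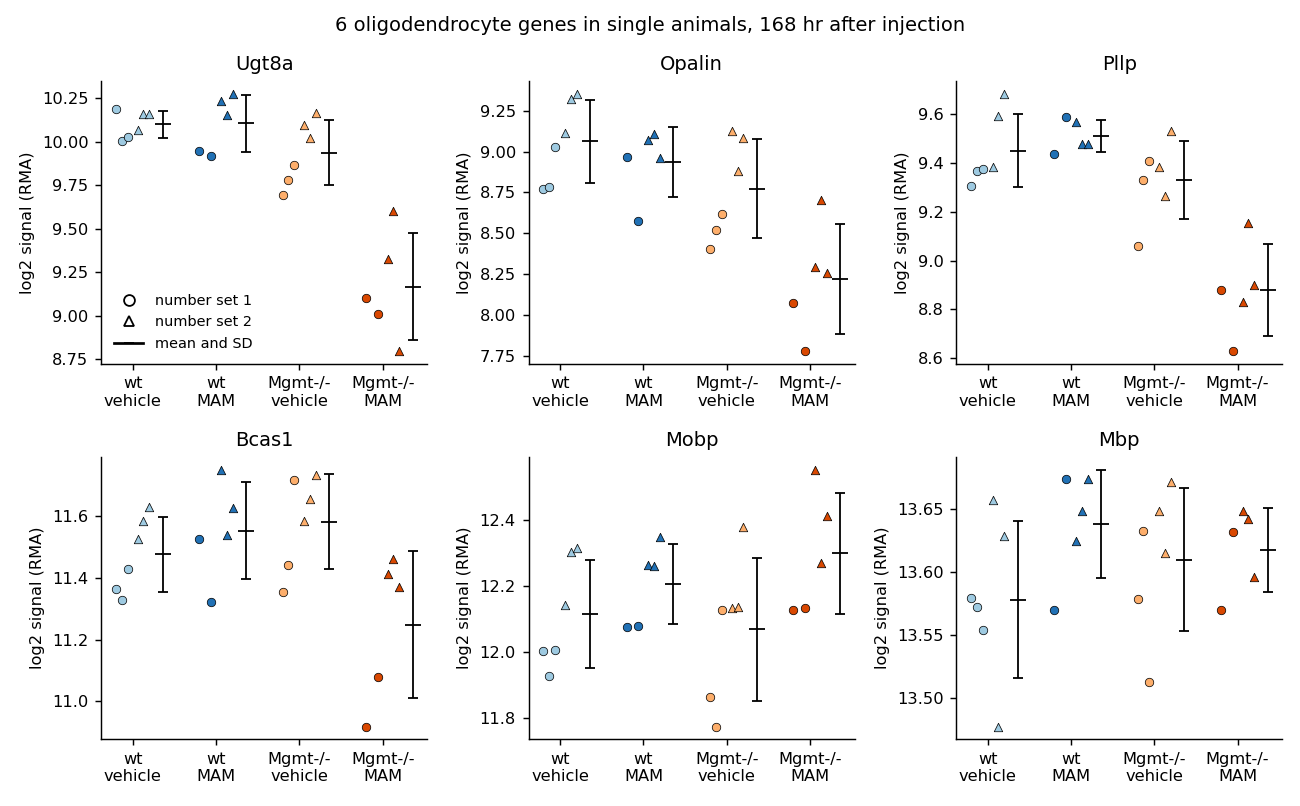
Log2 signal of 6 genes in single animals at 168 hr, by genotype and agent, with circles for number set 1, triangles for number set 2 and the mean with SD beside each group (each panel has its own vertical range). Ugt8a of the 5 Mgmt-/- MAM animals lies between 8.80 and 9.60, below the 9.69 to 10.16 of the Mgmt-/- vehicle animals, while Mbp spans 13.48 to 13.67 over all 4 groups.

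Another 3 genes passed the false discovery rate but not the fold threshold. Bcas1, of early myelinating cells, had 10.92, 11.08, 11.41, 11.46 and 11.37 after MAM against 11.36 to 11.73 with vehicle, and differed by -0.36 (adjusted p = 0.018), Adamts4, a proteoglycan-cleaving protease of oligodendrocytes, by -0.35 (adjusted p = 0.036) and Qdpr by -0.30 (adjusted p = 0.033, limma). A second Qdpr probe set, dimmer than the one used, was called with -0.59. The second Bcas1 probe set, with a mean of 4.53, differed by 0.03. Car2, the carbonic anhydrase of oligodendrocytes, was set aside by the laboratory filter, with a median of 11.08 and a highest value of 11.46 after MAM, against a lowest value of 11.50 and a median of 11.64 with vehicle. Its groups did not overlap, and the difference was -0.62 and -0.36 in the 2 sets.

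By role, the 6 measured lipid and other enzymes all had negative differences, from -0.79 to -0.06 with a median of -0.30. Gal3st1, which adds the sulfate of sulfatide, differed by -0.29 (adjusted p = 0.075), Aspa, which breaks down N-acetylaspartate, by -0.12 and Fa2h, which makes hydroxylated fatty acids of myelin lipids, by -0.06. Of the 12 myelin and membrane proteins 8 were negative, with a median of -0.13. Among these Mag, an adhesion protein next to the axon, differed by -0.30 (adjusted p = 0.11), and Mog, on the outer face of myelin, by -0.35 and Gjb1, connexin 32, by -0.30, both set aside. Ermn, a cytoskeletal protein of myelinating cells, differed by -0.20 and Tspan2, a tetraspanin, by -0.06.

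Several structural proteins of myelin differed little or had positive values. Mbp differed by 0.00 (95% confidence interval -0.10 to 0.11) and Cnp by -0.04 (-0.18 to 0.09). Mal, a raft protein of myelin, Mobp, and Cldn11, which forms the tight junctions of myelin, had 0.26, 0.20 and 0.20 without passing the test (adjusted p = 0.083, 0.24 and 0.46). All 5 probe sets of Mobp had positive differences, from 0.18 to 0.55.

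Among the 6 transcription factors 0 were called. Olig1 differed by -0.04, Sox10 by -0.04 and Myrf by 0.02, while Olig2 had -0.22, Nkx6-2 -0.27 and Sox8 -0.11. Of these only Olig1 and Nkx6-2 passed the laboratory filter. The precursor markers Pdgfra and Cspg4 had 0.05 (95% confidence interval -0.15 to 0.25) and 0.11 (-0.08 to 0.30), and Gpr17 and Enpp6, of newly formed oligodendrocytes, had -0.29 and -0.28. The remaining genes Gpr37, a receptor of mature oligodendrocytes, and Evi2a, a membrane protein, had -0.35 and -0.27.

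**Figure D2:**
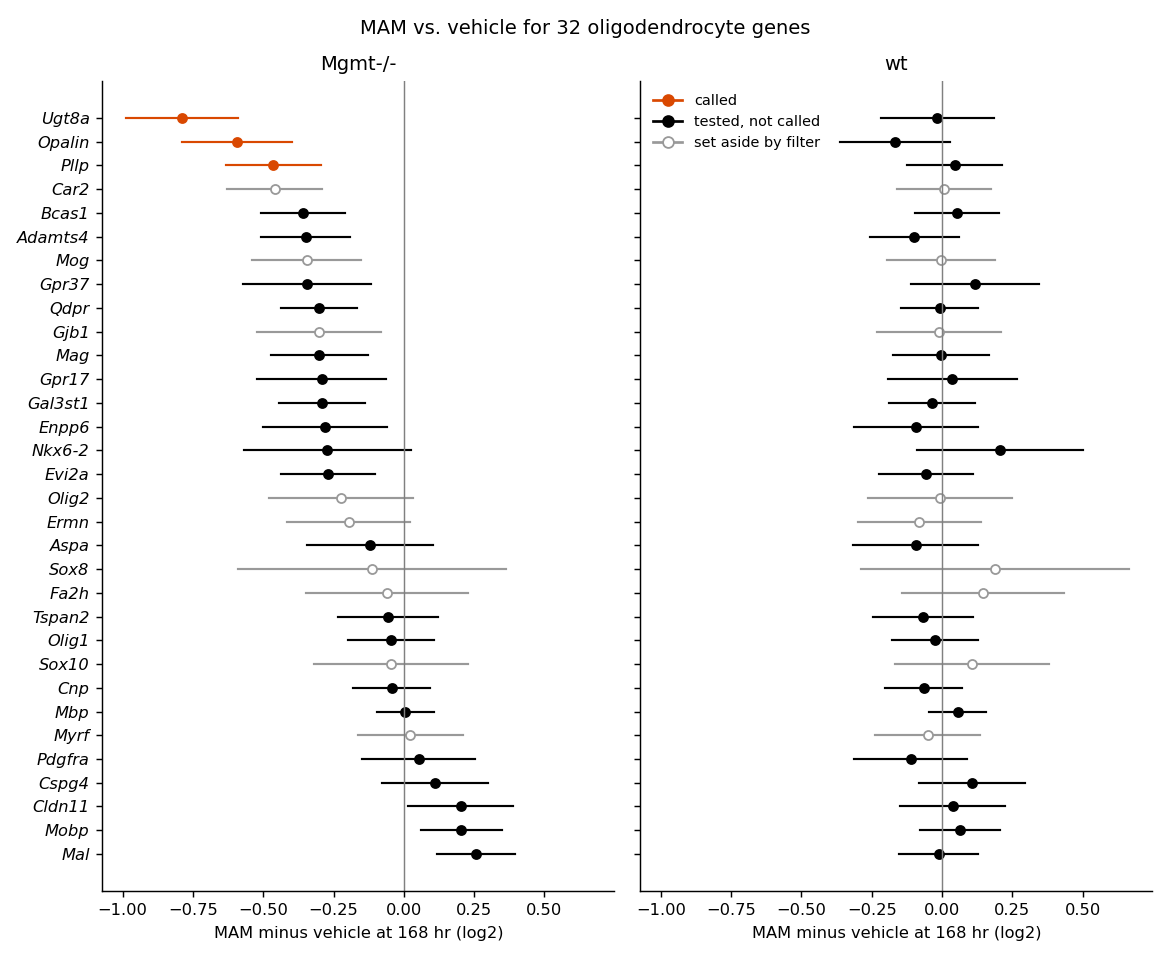
MAM minus vehicle at 168 hr (log2, horizontal) for the 32 genes in Mgmt-/- and wt brain, with 95% confidence intervals from the fit; orange marks called genes and open grey circles genes set aside by the laboratory filter. In Mgmt-/- brain 25 of 32 points lie below 0, from -0.79 for Ugt8a to 0.26 for Mal, whereas in wt brain 19 do and 0 genes are called.

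In all, 25 of the 32 genes were lower after MAM in Mgmt-/- brain at 168 hr, with a median difference of -0.25, against -0.01 over all genes, of which 52.3% were negative. At an unadjusted p under 0.05, 12 of the 23 tested genes were lower and 3 higher, against 5.82 and 3.89% of all tested probe sets. The sign was the same in both number sets for 25 of 32, with a median of -0.30 in set 1 and -0.25 in set 2. The 8 genes with a mean above 11 log2 units had a median of -0.04, with 5 negative, and the other 24 had -0.27, with 20 negative. These 8 ran from -0.46 for Car2 to 0.26 for Mal. The Pearson correlation of mean level with the difference was 0.19 over the 32 genes. Averaged over the 32 genes, the 5 MAM-treated arrays deviated from the mean of each gene over all arrays by -0.30 to -0.03, and the 6 vehicle arrays lay between -0.21 and 0.16. Beside these values, the RNA 3'/5' index had means of 0.520 after MAM and 0.552 with vehicle, and the 3 genes were also called after adjustment for the index.

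Marker genes of other cells were compared at the same time. Of 9 measured microglial genes all 9 were negative with a median of -0.22 (2 passed the filter, 0 called), and their summed linear signal was 2857 to 3090 after MAM against 3067 to 3584 with vehicle. Of 10 astrocyte genes 6 were negative, with a median of -0.05, and sums of 23185 to 25831 and 22737 to 25541. Here Aqp4, the water channel of astrocyte endfeet, fell by 0.52 (adjusted p = 0.010) and Gjb6, connexin 30, rose by 0.48 (adjusted p = 2.6e-04). The 10 neuronal genes had a median of -0.01, with sums of 37566 to 40720 and 37855 to 42285. The 4 measured peripheral myelin genes had a median of -0.11, with sums of 491 to 627 and 585 to 749. Medians were -0.08 for endothelium, 0.15 for striatal neurons, 0.09 for choroid plexus and 0.06 for liver genes. The part of these cell types in the result was not tested.

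Before 168 hr, 0 genes were called for MAM vs. vehicle in Mgmt-/- brain. At 6 hr the background was 1.68% of probe sets called, and 7 of the 32 genes were tested. The largest differences were 0.59 for Gpr17, 0.41 for Sox10 and 0.40 for Myrf, all set aside by the filter, and for Gpr17 it was -0.03 in set 1 and 1.21 in set 2. At 24 hr (0.615% called) they were -0.46 for Mog, 0.34 for Sox10 (adjusted p = 0.087) and 0.25 for Myrf, and Sox10 and Myrf did not overlap between the groups (1.19% of all tested probe sets). Mog and Myrf were set aside. At 48 hr (0.45% called) they were -0.28 for Adamts4, 0.28 for Mal and -0.26 for Car2 (adjusted p = 0.41, 0.24 and 0.60), with no overlap for Adamts4 and Mal (0.636% of probe sets). The medians over the 32 genes were 0.18, -0.01 and -0.04 at the 3 times. At an unadjusted p under 0.05, limma gave 0, 1 and 4 of the tested genes in either direction. Of all tested probe sets, 8.53, 5.38 and 5.21% were lower and 9.27, 5.28 and 3.51% higher at this level.

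The 6 hr values involved 2 arrays that stood low. Animals A903 and A905 (Mgmt-/- vehicle, number set 2) deviated by -0.54 and -0.63 in the mean over the 32 genes, and the next lowest array, A337 (Mgmt-/- MAM 48 hr), by -0.39. Relative to the other 4 of their group, 26 of 32 genes were lower on both, with medians of -0.52 and -0.60. The microglial genes had medians of -0.70 and -0.95, the endothelial genes -0.39 and -0.75, the neuronal genes -0.16 and -0.07 and the liver genes 0.62 and 0.72. Over all genes, 52.2 and 56.0% were lower on these arrays. Their RNA 3'/5' index, 0.441 and 0.430, lay within the 0.417 to 0.460 of the others, and the part of any of these in the result was not tested.

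**Figure D3:**
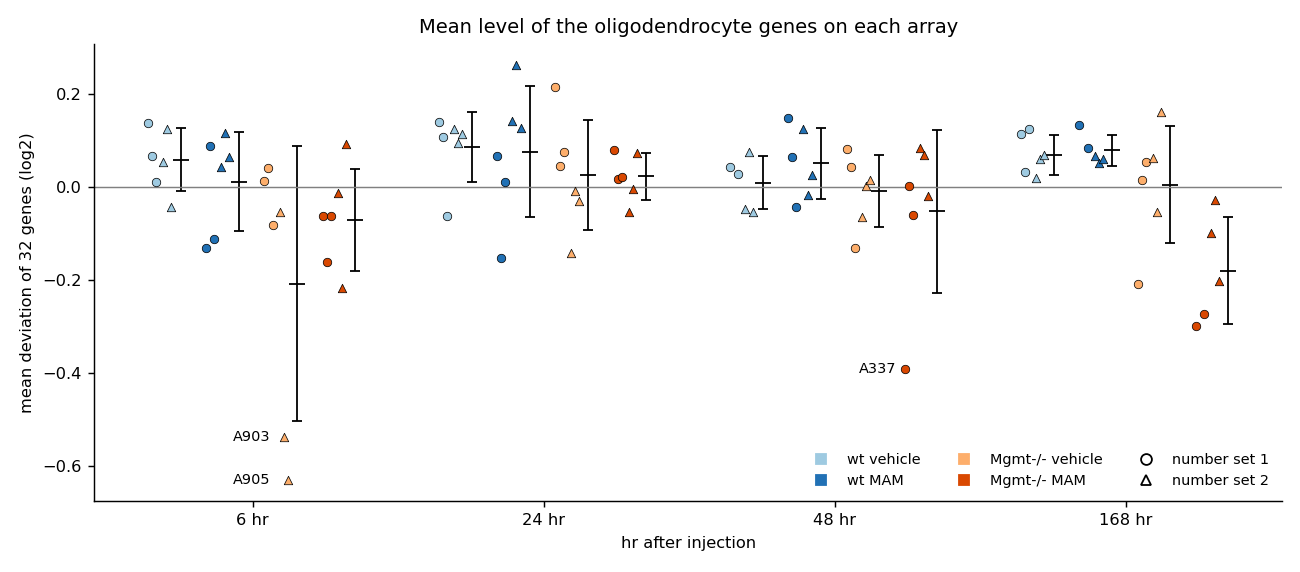
Mean deviation of the 32 genes from their mean over all arrays (log2, vertical) on each of 93 arrays, by time, genotype and agent, with group mean and SD. Arrays A905, A903 and A337 lie at -0.63, -0.54 and -0.39, and the 5 Mgmt-/- MAM arrays at 168 hr all lie below 0.

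Whether the 168 hr difference departed from the earlier ones was tested over all arrays without the laboratory filter. MAM minus vehicle at 168 hr less its mean at 6, 24 and 48 hr was negative for 28 of 32 genes in Mgmt-/- brain, with a median of -0.20, and 1 gene was called (0.0798% of all probe sets). This was Bcas1 with -0.53 (SE 0.12, adjusted p = 0.045), and the call was lost in 28 of the 93 fits that each left out 1 animal, A903 and A905 among them, and after adjustment for the RNA 3'/5' index. Ugt8a had -0.85 (SE 0.21, adjusted p = 0.093). In wt brain 0 genes were called (limma, 0 also at an unadjusted p under 0.05), and the median was 0.01.

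**Figure D4:**
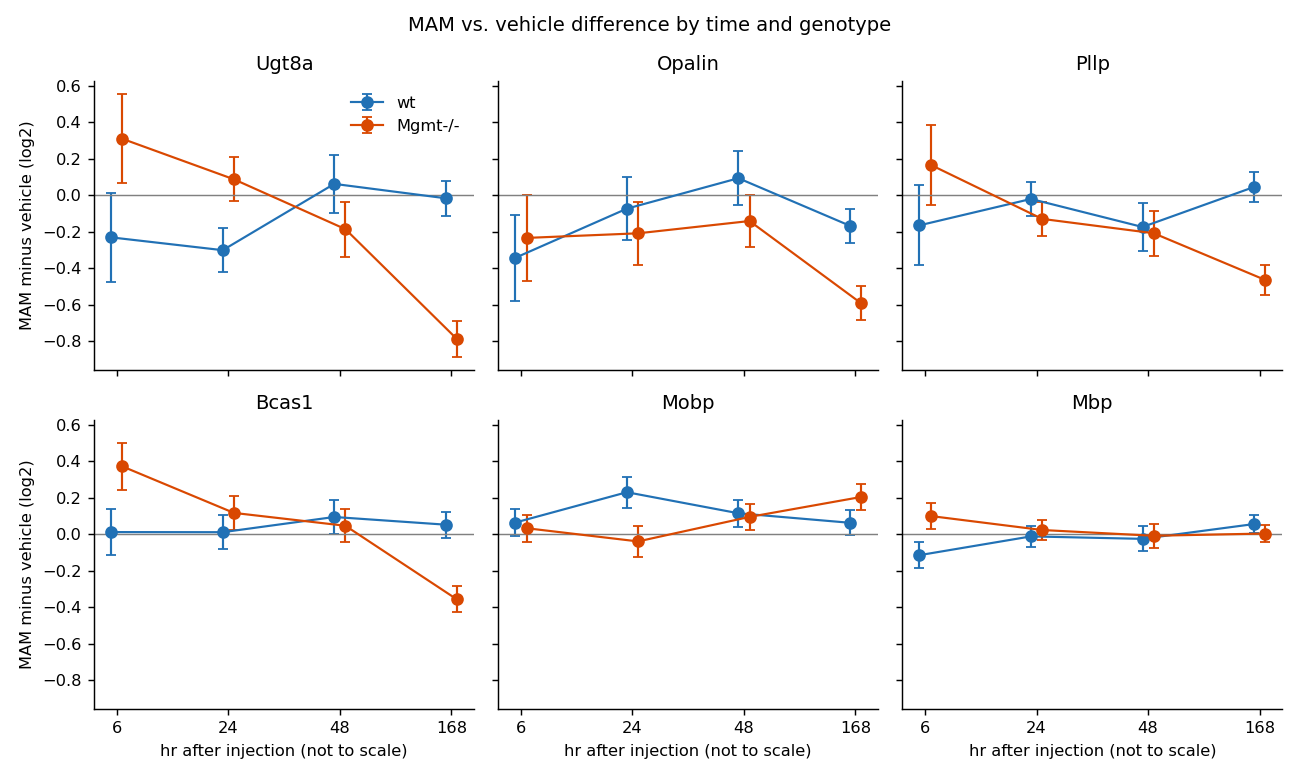
MAM minus vehicle (log2, vertical) with its SE at the 4 times (horizontal, not to scale) for 6 genes in wt (blue) and Mgmt-/- (orange) brain. In Mgmt-/- brain Ugt8a, Opalin, Pllp and Bcas1 reach -0.79, -0.59, -0.46 and -0.36 at 168 hr, while Mobp is at 0.20 and Mbp at 0.00.

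In wt brain, with repair intact, MAM gave 0 called genes at every time by limma, and 0% of all probe sets were called. At 168 hr the median was -0.01 and the largest differences were 0.21 for Nkx6-2, 0.19 for Sox8, set aside by the filter, and -0.17 for Opalin (adjusted p = 1.00 for Nkx6-2 and Opalin). Ugt8a had 9.92, 10.15 and 10.27 as lowest, median and highest after MAM and a median of 10.11 and a highest value of 10.18 with vehicle, so the groups overlapped fully. At 6 hr the largest were -0.53 for Sox8, -0.34 for Opalin and 0.29 for Sox10, the last set aside, at 24 hr 0.41 for Nkx6-2, -0.34 for Enpp6 and -0.30 for Ugt8a, and at 48 hr 0.40 for Sox8, 0.21 for Ermn and -0.17 for Pllp (adjusted p from 0.30 to 0.95, with no overlap between the groups for Enpp6, as for 0.338% of probe sets). At an unadjusted p under 0.05 there were 1, 4, 0 and 0 of the tested genes at the 4 times. Of all tested probe sets, 1.37, 2.88, 9.53 and 1.6% were lower and 3.45, 3.84, 5.46 and 2.32% higher at this level.

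The difference between genotypes in the response was tested as an interaction. At 168 hr it was called for 1 gene (0.0625% of probe sets in either direction and 0.0187% lower), Ugt8a with -0.77 (SE 0.14, adjusted p = 0.024). It was -0.58 in number set 1 and -0.94 in set 2. When each animal of this time was left out in turn, Ugt8a was tested in 21 fits with -0.86 to -0.74, and the call was lost in 10 of them (adjusted p up to 0.079), and without A971 it was set aside. These were the fits without A121, A719, A721 or A723 (wt vehicle), A743, A745 or A747 (wt MAM), A919 or A923 (Mgmt-/- vehicle) and A347 (Mgmt-/- MAM). Pllp had -0.51 (adjusted p = 0.14), and -0.57 without A969, where it was called, and Nkx6-2 -0.48 (adjusted p = 0.65), and 24 of the 32 genes were negative. At an unadjusted p under 0.05, 11 were lower, against 4.13% of tested probe sets, and 1 was higher, against 2.86%. Of 31 other probe sets of the genes, 1, of a gene other than Ugt8a, was also called for the interaction at 168 hr. At 6, 24 and 48 hr 0 were called, with 1, 2 and 3 at an unadjusted p under 0.05 (limma). By that measure 5.81, 3.45 and 7.1% of all tested probe sets were lower and 3.13, 2.05 and 9.48% higher. Of all probe sets 0.0677, 0 and 0.886% were called. At 6 hr the largest were 0.76 for Sox8 (adjusted p = 0.18), 0.54 for Ugt8a and 0.50 for Gpr17, the last 2 set aside, and Ugt8a had -0.02 without A903 and A905. At 24 hr they were -0.53 for Mog, set aside, -0.52 for Nkx6-2 and 0.39 for Ugt8a (adjusted p = 0.66 and 0.86). At 48 hr they were -0.60 for Sox8, -0.43 for Adamts4 and -0.37 for Ermn (adjusted p = 0.30, 0.18 and 0.28).

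Between vehicle-treated Mgmt-/- and wt mice, 5 genes differed at 1 or more times. At 6 hr 28 of the 32 genes were lower in Mgmt-/- brain, with a median of -0.23 against 0.02 over all genes, and the median was -0.04 in number set 1 and -0.41 in set 2, which held A903 and A905. The medians at 24, 48 and 168 hr were -0.05, 0.00 and -0.05, with 20, 16 and 23 genes lower. Sox8 was lower in Mgmt-/- brain at 6 hr, with 4.44, 4.78 and 4.91 as lowest, median and highest against 5.69, 6.12 and 6.34 in wt. The groups did not overlap (4.17% of probe sets) and the difference was -1.34 (SE 0.15, adjusted p = 3.9e-06), where 3.4% of all probe sets were called. Gpr37 had 7.90, 8.83 and 8.97 against 8.93, 9.16 and 9.30 at the same time, a difference of -0.46 (adjusted p = 0.035), but without A903 and A905 it had -0.24 (adjusted p = 0.22), and the call was also lost without A101, A103, A703, A903 or A905 alone. Mog had 7.58, 8.25 and 8.59 against 8.65, 8.92 and 9.15 and did not overlap, but was set aside, with -0.52 in set 1 and -1.12 in set 2. It was tested and called where A105, A125, A301, A303, A703, A729, A903 or A905 was left out. Ugt8a, also set aside, differed by -0.78, and by -0.21 without A903 and A905. At 24 hr (4.08% called) Nkx6-2 was higher in Mgmt-/- brain, with 5.39, 6.00 and 6.40 against 5.30, 5.45 and 5.66, a difference of 0.53 (SE 0.13, adjusted p = 0.014). Sox8 was again lower with 4.43, 4.68 and 4.85 against 5.35, 5.67 and 6.71, without overlap, but its difference of -1.15 was set aside by the filter. It was tested and called where A131 or A731 (wt MAM) was left out. Cldn11 differed by -0.52 and was set aside. Nkx6-2 (chr7:139579376-139582797, GRCm38.p6) lies 2.45 Mb from Mgmt.

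At 48 hr (2.98% called) Cldn11 and Mog were lower. Cldn11 had 9.14, 9.28 and 9.56 in Mgmt-/- and a lowest value of 9.67 in wt vehicle brain, a difference of -0.52 (SE 0.10, adjusted p = 0.0036). Mog had 8.12, 8.32 and 8.50 against a lowest value of 8.60, a difference of -0.42 (SE 0.09, adjusted p = 0.0074). Neither pair of groups overlapped, as for 2.93% of all tested probe sets. Sox8 differed by -0.56 (adjusted p = 0.14), and by -0.80 without A717, where it was called. At 168 hr 0 genes were called in vehicle brain (0.0812% of probe sets), with 6 at an unadjusted p under 0.05 by limma. By that measure 4.39% of all tested probe sets were lower and 5.56% higher. The largest differences were -0.43 for Sox8 and -0.34 for Mog, both set aside, and 0.38 for Nkx6-2 (adjusted p = 0.31).

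After MAM, Mgmt-/- brain had 8 genes lower than wt at some time. The comparisons share the MAM-treated Mgmt-/- arrays with those of MAM vs. vehicle. At 6 hr (7.12% called, 4.66% lower) Sox8 had 4.49, 5.04 and 5.13 as lowest, median and highest in Mgmt-/- and 5.13, 5.54 and 5.99 in wt brain, a difference of -0.58 (adjusted p = 0.010). Mog with -0.70 and Ermn with -0.42 were set aside at 6 hr. At 48 hr (9.31% called, 6.82% lower) it had 4.54 to 4.91 against 5.43 to 6.46, a difference of -1.16 (adjusted p = 2.2e-04). Ermn had 8.61, 9.44 and 9.55 against 9.70, 9.84 and 9.91 at 48 hr, a difference of -0.50 (adjusted p = 0.0046). Mog had 8.11, 8.30 and 8.38 against 8.43, 8.68 and 8.94, a difference of -0.40 (adjusted p = 0.0019). None of these groups overlapped, as for 5.53% of tested probe sets at 6 hr and 10.8% at 48 hr. Without A337 Ermn differed by -0.36 and was not called, and without A141 or A341 Mog differed by -0.37 or -0.38 and was not called. At 24 hr 0 of 11 tested genes were called (5.14%), with 2 at an unadjusted p under 0.05 by limma. By that measure 11.1% of all tested probe sets were lower and 12.9% higher at 24 hr. Sox8 with -1.01, Mog with -0.81 and Cldn11 with -0.55 were set aside there, and Sox8 was called without A131 or A731.

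At 168 hr after MAM (1.46% called, 0.943% lower) 5 genes were lower in Mgmt-/- than in wt brain. They were Ugt8a with -0.94 (adjusted p = 1.3e-05), Opalin with -0.71, Pllp with -0.63, Gpr37 with -0.60 and Gpr17, of newly formed oligodendrocytes, with -0.51 (adjusted p = 3.2e-04, 2.4e-04, 0.0055 and 0.017). Gpr37 had 8.55 to 8.85 in Mgmt-/- and 9.12 to 9.72 in wt, without overlap (3.49% of probe sets). Gpr17 had 7.58 to 7.94 against 7.93 to 8.58, and without A345 it differed by -0.47 (adjusted p = 0.057).

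Over the 8 groups of each genotype, mean Sox8 was 4.65 to 4.97 in Mgmt-/- and 5.27 to 6.08 in wt brain, and mean Mog 8.07 to 8.58 and 8.69 to 8.93. Cldn11 was less separate, with 9.25 to 9.62 and 9.61 to 10.07. Sox8 rests on its only single-gene probe set, which was dim, with a mean above 47.7% of all probe sets. Its mean in every Mgmt-/- group lay below the lowest array median of 5.31. It also had the widest spread within groups of the 32 genes (SD 0.38) and was not tested with bright probe sets only. Both Sox8 (chr17:25565893-25570686) and Mog (chr17:37010740-37023398, GRCm38.p6) lie on chromosome 17. The RNA 3'/5' index moved with the genotype and, before 168 hr, with MAM in Mgmt-/- brain. After adjustment for the index Sox8 in vehicle brain at 6 hr had -1.12 (adjusted p = 9.2e-04), but after MAM -0.10 at 6 hr and -0.69 at 48 hr (adjusted p = 0.92 and 0.37), and Mog at 48 hr kept its call with vehicle (-0.40) and not after MAM (-0.36, adjusted p = 0.28).

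**Figure D5:**
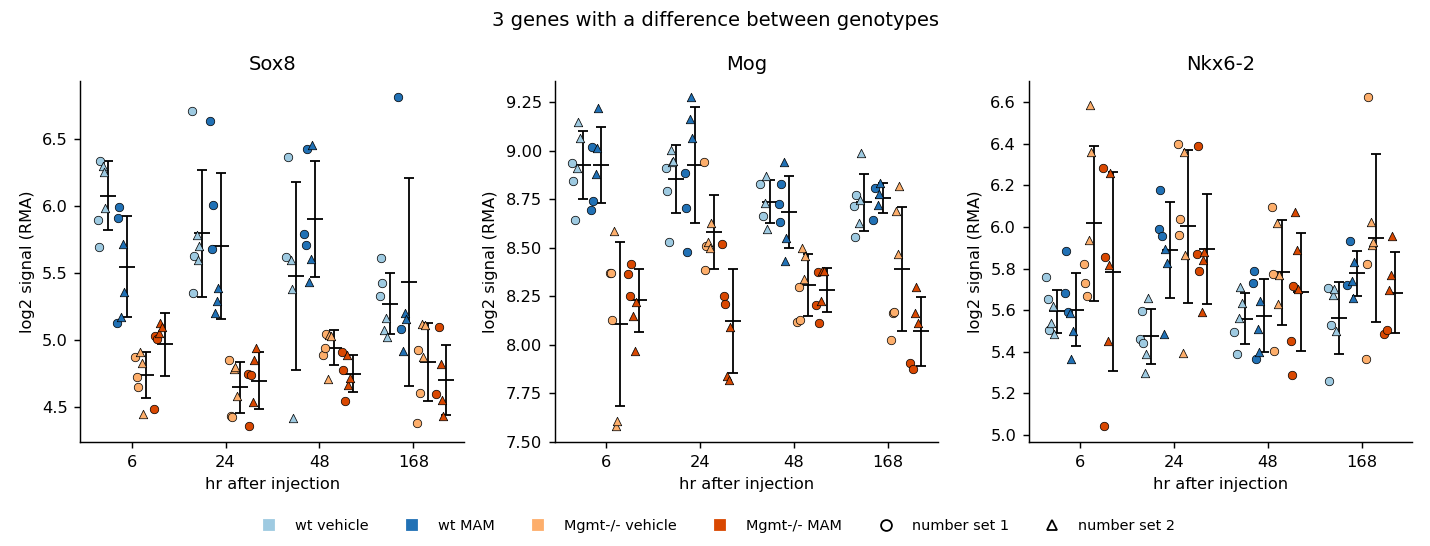
Log2 signal of Sox8, Mog and Nkx6-2 in single animals of all 16 groups by time (hr, horizontal), with circles and triangles for number sets 1 and 2 and mean with SD. Mean Sox8 stays at or below 4.97 in every Mgmt-/- group and at or above 5.27 in every wt group, and the SD of Nkx6-2 is 0.19 to 0.48 in Mgmt-/- groups and 0.10 to 0.23 in wt groups.

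Other probe sets of these genes were also called between genotypes. Of 31 such probe sets, with those set aside included, 2, 1, 0 and 0 were called with vehicle at the 4 times. Of all tested probe sets, 3.4, 4.08, 2.98 and 0.0812% were called in these comparisons. After MAM the counts were 3, 1, 4 and 1, next to 7.12, 5.14, 9.31 and 1.46% of all tested probe sets. The dimmest of the 3 Cnp probe sets was lower in Mgmt-/- brain at 6 hr with vehicle, with a difference of -0.64 (adjusted p = 7.1e-04), and differed by -0.80, -0.79 and -0.64 after MAM at 6, 24 and 48 hr, while the brightest was not called. The second Mal probe set differed by -0.55 with vehicle and -0.50 after MAM at 6 hr. Ugt8a's second probe set differed by -1.11 after MAM at 48 hr.

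Time alone was compared in vehicle brain. Between 6 and 168 hr 0 genes were called in either genotype. In Mgmt-/- brain the median of 168 minus 6 hr was 0.21, against 0.01 over all probe sets (limma, 0% called). At an unadjusted p under 0.05, 16 of the 32 genes were higher, next to 5.87% of all probe sets. The largest were Ugt8a with 0.62, Pllp with 0.57 and Opalin with 0.52 (adjusted p = 0.21, 0.17 and 0.31), with A903 and A905 in the 6 hr group. In wt brain, where 0.142% of probe sets were called, the median was 0.01, and Sox8 had -0.81 (adjusted p = 0.075) and Opalin 0.56 (adjusted p = 0.22). Between number sets 0 of the genes were called (0.694% of probe sets), with 5 at an unadjusted p under 0.05 by limma. These 5 also had an adjusted p under 0.05 and missed only the fold threshold. In set 2 minus set 1, Mobp had 0.13, Mbp 0.09, Bcas1 0.15, Qdpr 0.11 and Cspg4 -0.16. Their adjusted p by limma was 1.4e-04, 4.3e-04, 0.0012, 0.0029 and 0.0012.

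Related genes were read from lists of other oligodendrocyte genes and of lipid synthesis. Of 28 further oligodendrocyte genes 23 were lower in Mgmt-/- brain at 168 hr after MAM, with a median of -0.15, and 2 of 16 tested were called. Of all tested probe sets 0.462% were called in this comparison, 0.244% in the lower direction. Klk6, a serine protease of mature oligodendrocytes, differed by -0.86 (SE 0.16, adjusted p = 0.011) and Ppp1r14a, an inhibitor of myosin phosphatase, by -0.50 (SE 0.09, adjusted p = 0.0066). Anln, an actin-binding septin partner, had 0.42 but was set aside. Of 19 cholesterol synthesis genes 18 were negative, with a median of -0.285, and 5 of 15 tested were called lower. These were Msmo1 with -0.55, Idi1 with -0.49, Cyp51 with -0.46, Mvd with -0.40 and Hmgcs1 with -0.39. Of 19 sphingolipid synthesis genes 11 were negative, with a median of -0.04 and a range from -0.34 for Elovl7 to 0.22 for Sgms1, and 0 of 13 tested were called (limma, 5 at an unadjusted p under 0.05). By that measure 5.82% of all tested probe sets were lower and 3.89% higher. Gltp, which carries glycolipids between membranes, had -0.15 at 168 hr and 0.60 at 6 hr, where it was called (adjusted p = 0.0015).

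Within groups, the median SD between animals was 0.21 over the 32 genes and 0.17 log2 units over 18194 genes. Mbp, Cnp, Olig1, Mobp, Mal, Qdpr and Myrf had SDs below that of the median gene. The widest were Sox8 with 0.38, Opalin with 0.33 and Ugt8a with 0.32. After removal of group and number-set means, the correlation of each gene with the mean of the other myelin protein genes over 93 arrays was 0.80 for Ugt8a, 0.78 for Mog and Mag and 0.76 for Pllp. It was 0.14 for Mbp, 0.01 for Pdgfra and 0.00 for Cspg4. The genes outside the set most like that mean were Efhd1 (0.78), Cmtm5 (0.78), Lpar1 (0.75), Pdlim2 (0.75) and Serpinb1a (0.73). These points share arrays and normalization, and the values are descriptions.

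Promoters were read for 22 of the 32 genes from RefSeq windows (GRCm38.p6) running from 250 bases before to 50 after the start. SOX letters (ACAAAG or ACAATG, both strands) stood in the windows of 10 of the 22 genes, or 45.5%, against 28.6% of 32851 windows of all genes. The E-box letters CAGCTG stood in those of 2 (9.09% against 16.3%), and the MYRF letters CTGGCAC in those of 3 (13.6% against 5.01%). Some genes have more than 1 window, so the 2 shares are not counted alike. The windows of Ugt8a and Pllp held none of these letters. Shown are 30-base stretches at or before the start of Opalin, called at 168 hr, Ermn, called between genotypes, and Mag, whose signal followed the myelin mean with a correlation of 0.78, 5′ to 3′ on the strand of the gene with the motif in capitals.
Opalin, SOX, chr19:41077235-41077264, minus strand: cagaaaataaagACAAAGagaaggaagact
Ermn, SOX, chr2:58053081-58053110, minus strand: acaaggaaaattACAATGggccattatgga
Mag, SOX read on the opposite strand, chr7:30914972-30915001, minus strand: tgacaagggcccCTTTGTgcccccctcccc
Mag, MYRF, chr7:30914914-30914943, minus strand: ggcaggcggcccCTGGCACccagggggcag
A match of letters is a description of the window and not a binding site.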

How the data were processed

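RNA of half-brains was hybridised to Affymetrix Mouse Genome 430 2.0 arrays. The deposited log2 values were made by the authors with RMA (affy, version not given in the sources used here). All 94 arrays had 45101 probe sets without missing values and medians of 5.31 to 5.58, and 34958 probe sets named 1 gene. The precision is limited by the number of animals.

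Each time point was fitted with limma 3.58.1 (R 4.3.3) on genotype, agent, their interaction and number set. Probe sets were tested where the joint F test of the number-set interactions had p above 0.15, with Benjamini-Hochberg adjustment over all of them. Called genes had an adjusted p under 0.05 and changed by more than 1.3-fold. Times were compared in a fit over 93 arrays with number set and no filter. Group differences are adjusted for number set and can depart slightly from the difference of group means. Values were given for called members and, where fewer than 3 were called, differences for the 3 largest. Members and lists were chosen with earlier results of these data known. The scripts were tested on simulated data. Alternatives were no laboratory filter, an ordinary linear model as in the methods, A343 kept, cyclic loess, bright probe sets only, adjustment for the RNA 3'/5' index, each number set alone, the second probe set of a gene, and each animal left out. Leaving out A707 with A727, and A903 with A905, was chosen after seeing the data. The probe set of Mgmt was not used to check the genotype, since the labels do not place it relative to the deletion.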

Additional observations from a re-analysis of the deposited data

Results flagged for a closer look

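The array of A343 stood apart with a median of 13.57 log2 units over 11 liver genes, and Mbp there was 4.97 against at least 13.57 on the other arrays of its group.

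Of 48 groups examined, all 16 for the mean over the 32 genes and for each called gene those of its comparison, 5 held an animal far from the others, where chance flags about 1 in 20. The mean over the genes was 9.18 for A111 (wt vehicle 24 hr), against 9.33 to 9.38 for the others of its group, a gap of 0.773 of the group's range. It was 8.85 for A337 (Mgmt-/- MAM 48 hr) against 9.18 to 9.32, a gap of 0.701. Ermn of A337 was 8.61 against 9.36 to 9.55, a gap of 0.796. Opalin of A145 (wt MAM 168 hr) was 8.57 against 8.96 to 9.11, a gap of 0.725. Sox8 of A325 (Mgmt-/- MAM 6 hr) was 4.49 against 5.01 to 5.13, a gap of 0.811.

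The MAM difference of Ugt8a at 168 hr was larger in Mgmt-/- than in wt brain by the interaction of -0.77 (adjusted p = 0.024, limma). The MAM difference of Bcas1 in Mgmt-/- brain departed at 168 hr from its mean at the earlier times by -0.53 (adjusted p = 0.045, limma).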

How the results depend on the processing

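Of 2091 values of single genes under the alternatives, 1965 kept their direction and their side of the threshold, 57 lost a call, 59 gained one and 10 changed sign. Of the 1965, 1488 came from fits that each left out 1 animal and so shared nearly all arrays. Values that were not called and stayed so are also among the 1965, so this share does not measure how stable the calls were. A called value that was left untested under an alternative was not counted, so calls lost in that way are not among the 57. With each animal left out, Gpr17 between genotypes after MAM at 168 hr was thus counted in 19 fits, and Gpr37 in 22. For the counts of called genes, a small change of a count above 0 was treated as no change. Such changes are not listed apart from the ranges with each animal left out. The 3 genes called for MAM vs. vehicle in Mgmt-/- brain became 0 with A343 kept, where Ugt8a had -1.78, 1 with the second probe set of each gene, and 0 at 168 hr with number set 1 alone, while number set 2 alone gave 14 over the 4 times. The count was 2 to 5 with each animal left out, at 168 hr as over all times, and 5 only without A969. In wt brain the 0 became 1 with number set 2 alone and was 0 to 0 with each animal left out. The 1 called interaction became 0 with the ordinary linear model, with A343 kept and with number set 1 alone, and 2 with set 2 alone, and was 0 to 2 with each animal left out, 2 without A969. The 5 genes between genotypes with vehicle became 3 with the RNA index, 16 with number set 2 alone and 1 with second probe sets, and were 4 to 5 with each animal left out. The 8 after MAM became 4 with A343 kept, 5 with the RNA index, 15 with number set 2 alone and 5 with second probe sets, and were 7 to 10 with each animal left out. Between 168 and 6 hr with vehicle the 0 became 20 with number set 2 alone. The Mgmt-/- vehicle 6 hr group of this set held A903 and A905. With each animal left out the count was 0 to 2, 2 without A301 or A303 and 1 without A103, A121, A143 or A305. The 1 gene whose MAM difference at 168 hr departed from earlier times became 0 with the ordinary linear model, A343 kept, the RNA index, number set 1 alone or second probe sets, 2 with cyclic loess and 6 with number set 2 alone. It was 0 to 2 with each animal left out, 2 without A301, A303, A337 or A969, and 0 without A309, A311, A321, A323, A325, A329, A333, A339, A345, A347, A721, A903, A905, A911, A913, A917, A919, A921, A923, A949, A953, A957, A959, A961, A963, A965, A967 or A971. Signs changed with number set 1 alone for Gpr17 at 6 hr (-0.030 for MAM in Mgmt-/- brain, -0.10 for the interaction), Sox10 in wt at 6 hr (-0.038) and Sox8 in wt at 48 hr (-0.019). With second probe sets they changed for Bcas1 (0.025) and Opalin (0.048) in Mgmt-/- brain at 168 hr and Opalin in wt at 168 hr (0.11) and 6 hr (0.061). Ugt8a's interaction at 6 hr was -0.025 without A903 and A905, and Sox8 in wt at 168 hr was between -0.17 without A143 and 0.33 without A145. Number set 1 or 2 alone and second probe sets rest on fewer samples or genes, and for the other changes the cause was not tested. The fits of 1 number set used no laboratory filter, so all 32 genes were tested in them. The share of all probe sets called in these fits was not computed, so their counts have no background beside them. No paired analysis was possible because the animal numbers differ between the groups.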
